A study of Mus musculus with 16 samples.

Results

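The genes described here are 43 genes of the endoplasmic reticulum (ER) that encode its chaperones, its disulfide isomerases, its translocation and glycosylation machinery, its degradation machinery and 4 regulators of the unfolded protein response. They were listed by name and function from the 55414 mouse gene identifiers of the count table. All 43 were found, and all 43 passed the filter on low counts. RNA sequencing was carried out on 16 tumours grown from B6MyC-CaP, 1 prostate cancer line derived from a Hi-MYC transgenic mouse on the C57BL/6 background. The cells had been placed under the skin of male C57BL/6 mice aged 6 weeks, and established tumours were randomized to 4 groups with 4 tumours each. Vehicle mice had normal chow at all times and no enzalutamide. ENZ mice had the same chow and daily oral gavage of 20 mg/kg enzalutamide, an antiandrogen drug. ADF mice were kept on alternate-day fasting, with 24 h of fasting followed by 24 h of free feeding, and ADF+ENZ mice had both treatments. Neither the labels nor the file headers say if collection followed a fasted or a fed day. They also do not state that each tumour came from its own mouse, so the p-values measure the spread between these tumours only.

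Proteins bound for secretion or for membranes enter the ER through the Sec61 channel, receive N-linked glycans from oligosaccharyltransferase, and fold with the help of BiP, GRP94, the lectin chaperones and the disulfide isomerases. Chains that fail to fold are drawn back to the cytosol and degraded. When unfolded chains build up, the sensors IRE1, ATF6 and PERK start the unfolded protein response, whose transcription factors XBP1 and ATF6 raise many of the genes described here, and prostate epithelium is a secretory tissue that relies on this machinery.

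The ADF libraries stood apart from the others before any gene was compared. Reads that fell in no annotated gene made up 30.3 to 36.7% of the reads in the ADF libraries, against 23.4 to 27.9% in Vehicle, 24.5 to 27.9% in ENZ and 21.2 to 26.1% in ADF+ENZ, so the ADF group overlapped no other. Reads aligned to several places made up 4.10 to 5.03% in ADF and 6.51 to 7.96% in the other groups. Gene counts ran from 10072489 to 25505655 per library. As a check of the tissue, the luminal keratins Krt8 (206 to 661 CPM, counts scaled to library size with TMM factors) and Krt18 (61.4 to 235 CPM) were present in every library. The general epithelial genes Epcam (at most 0.808 CPM) and Cdh1 (1.43 to 5.26 CPM) were low. Fibroblast markers summed to 11226 to 13014 CPM in Vehicle and 9156 to 12797 CPM in ADF. Macrophage markers summed to 1006 to 1412 CPM and 992 to 1223 CPM, so both sums overlapped between these groups. Within the lists, Dcn was lower in ADF without overlap (3630 to 4895 CPM in Vehicle, 2538 to 3594 CPM in ADF). So was Cd68 (78.7 to 103.7 and 62.0 to 72.2 CPM). The other genes of these lists overlapped, and the part of Dcn and Cd68 in the results below was not tested. Of the 7 markers of plasma cells, a cell type with a large ER, Jchain (at most 1.05 CPM), Mzb1 (at most 0.240 CPM) and Tnfrsf17 (at most 0.162 CPM) were near 0. Ighm (2.06 to 11.8 CPM) and Igkc (0.287 to 8.81 CPM) were low. Pou2af1 was lower in ADF (17.9 to 21.6 CPM) than in Vehicle (23.0 to 37.7 CPM) without overlap. Sdc1, which epithelial cells also express, made up most of the list's sum. Of the 43 genes, 14 share exon positions with another annotated gene, among them Hsp90b1, Manf, Pdia3, Pdia6, Txndc5, Erp29, Derl2, Syvn1, Sec61a1, Ssr2, Rpn1 and Rpn2. No source used here says if the counting took strand into account. The counts of these 14 genes may lack reads set aside as ambiguous, or hold reads of the neighbour. Ambiguous reads made up 2.71 to 3.02% in ADF and 3.44 to 5.26% in the other groups, and their part in the results was not tested. In bulk tumours, fewer cells of a type and less RNA per cell cannot be told apart.

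The 43 genes together took 0.839 to 0.910% of all gene counts in the Vehicle libraries and 0.691 to 0.768% in the ADF libraries. The ENZ libraries lay at 0.789 to 0.884% and the ADF+ENZ libraries at 0.786 to 0.853%. Thus every ADF library devoted a smaller share of its counts to these genes than any library of the other 3 groups, while those 3 groups overlapped one another.

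**Figure D1:**
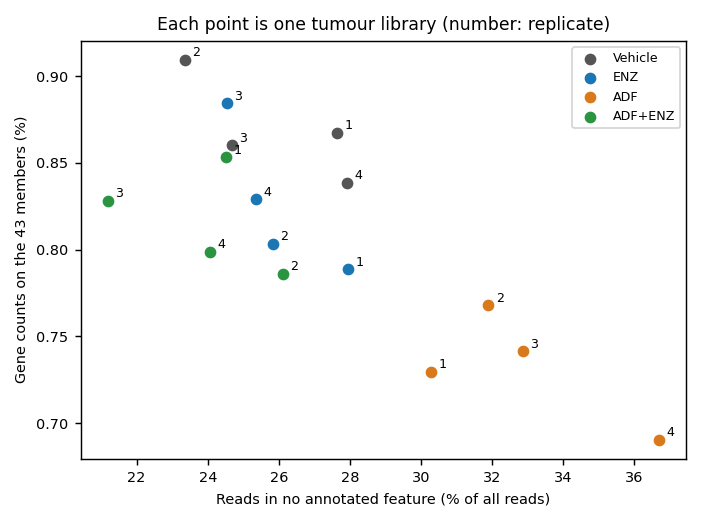
Percentage of gene counts on the 43 ER genes (y axis) against the percentage of reads in no annotated feature (x axis). Each point is 1 tumour library, coloured by group and numbered by replicate; the 4 ADF libraries lie at 0.691 to 0.768% on the y axis and 30.3 to 36.7% on the x axis, apart from the other 12.

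Levels differed widely between the 43 genes. Per kilobase of annotated exon and averaged over the 16 libraries, the protein disulfide isomerase P4hb was the most abundant, at 283 CPM per kb. Calr (172), Canx (167), Pdia3 (147), Ssr3 (129) and Hspa5 (123 CPM per kb) followed. The derlin Derl3 was the least abundant at 0.556 CPM per kb, and the other 42 genes averaged at least 10 CPM.

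Alternate-day fasting without the drug was compared with Vehicle to ask what fasting alone does to the machinery. Of the 43 genes, 18 fell and none rose past an adjusted p of 0.05 (edgeR quasi-likelihood test, Benjamini-Hochberg adjustment over 18946 genes). Over all genes tested, 4.96% fell and 4.05% rose in the same comparison. Among the 9450 protein-coding genes with a mean of at least 10 CPM, 8.13% fell, against 41.9% of the 43. The median log2 change of the 43 genes was -0.28, beside -0.06 for those protein-coding genes. Below 0 lay 39 of the 43 and 5847 of the 9450. At an unadjusted p under 0.05, 28 fell and none rose, and DESeq2 and limma-voom each called 23 lower and none higher. Over all genes DESeq2 called 1398 lower and limma-voom 1238, against 940 in edgeR. In 24 of the 43 genes the 4 ADF tumours did not overlap the 4 Vehicle tumours, where 16.5% of all genes tested did not overlap, and the 24 include all 18 that fell. The count was 9 without ADF replicate 4, 10 without Vehicle replicate 2 and 11 without Vehicle replicate 3. Over all genes 378 fell without ADF replicate 4. With the share of unassigned reads (those in no feature) added to the model, none of the 43 was called, 4 had an unadjusted p under 0.05 and the median log2 change was -0.08. That fit called 1 gene higher and 5 lower of all 18946 tested, against 767 and 940 without the covariate, so the count of 0 is near what all genes gave. The covariate fit has a median SE of 0.149 against 0.0993 without the covariate, and since no ADF library lies within the range of the Vehicle libraries, the covariate and fasting cannot be told apart.

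**Figure D2:**
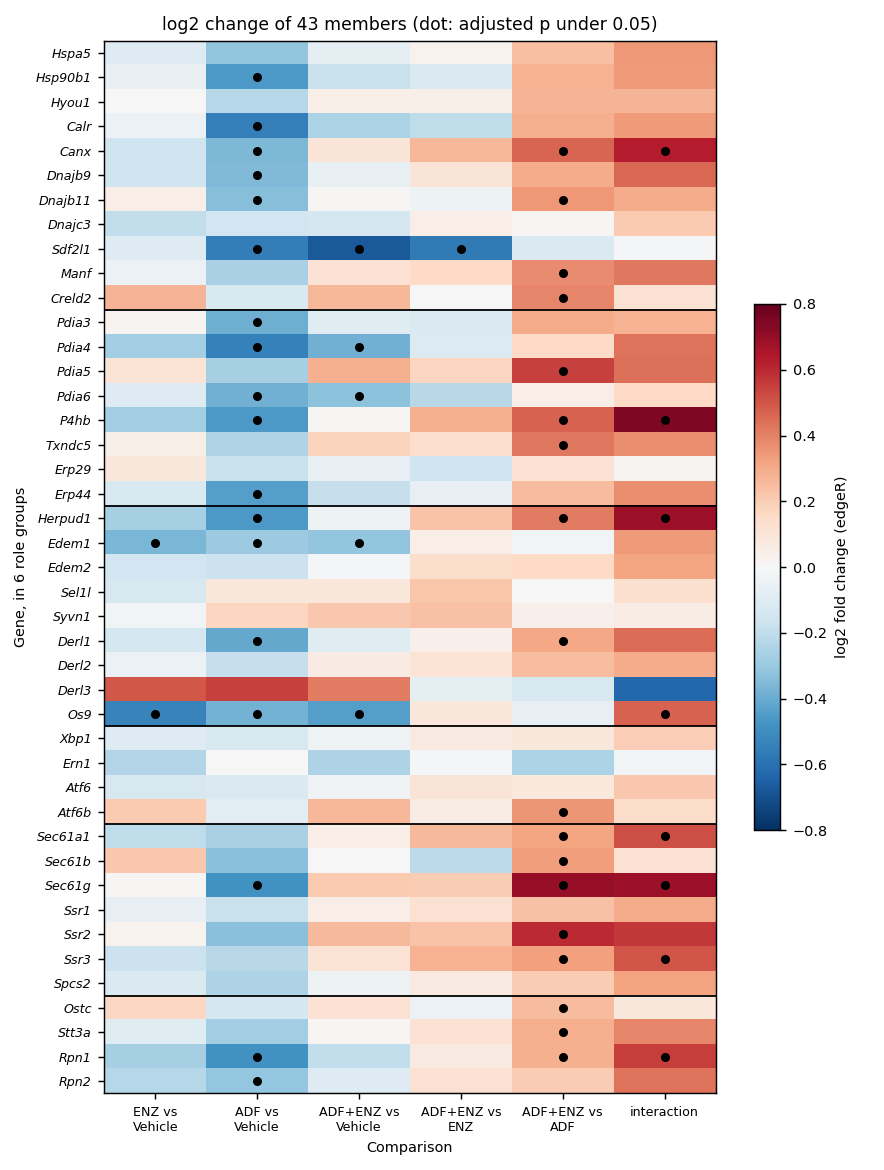
log2 fold change of each of the 43 genes (rows, in 6 role groups separated by lines) in the 5 pairwise comparisons and the interaction (columns). Blue is lower, red is higher, and a black dot marks an adjusted p under 0.05; the ADF column against Vehicle holds 18 dots on blue cells, and the ADF+ENZ column against ADF holds 18 on red cells.

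Adding enzalutamide to fasting was compared with fasting alone. Here 18 of the 43 genes rose and none fell, where 8.72% of all genes tested rose and 7.54% fell. Of the protein-coding genes at 10 CPM or more, 14.6% rose. The median log2 change of the 43 was 0.27, beside 0.08 for those protein-coding genes. Before adjustment 29 rose and 1 fell, and DESeq2 and limma-voom each called 23 higher and none lower. Over all genes DESeq2 called 2042 higher and limma-voom 2267, against 1652 in edgeR. In 13 of the 18 the groups did not overlap, and 17 of all 43 did not overlap, against 20.5% of all genes tested. This comparison uses the same ADF libraries as the comparison above, so the fall in one and the rise in the other are not separate evidence, and 7 genes were called in both. The count of genes that rose was 6 without ADF replicate 4, 7 without ADF+ENZ replicate 3 and 8 without ADF replicate 3. Over all genes 672 rose without ADF replicate 4, against 1652 with it. With the covariate none of the 43 was called, nor was any of the 18946 genes, with 3 of the 43 at an unadjusted p under 0.05 and a median of -0.04. Beside this rise, the plasma cell list summed to 309 to 340.0 CPM in ADF+ENZ and 225 to 307 CPM in ADF. Most of the sum came from Sdc1 (293 to 332 and 203 to 276 CPM). Pou2af1 of the same list went the other way, and every ADF+ENZ library lay below the ADF range of 17.9 to 21.6 CPM. The part of this list in the result was not tested. One gene, the IRE1 sensor Ern1, was called lower without ADF replicate 4 (log2 change -0.33, adjusted p = 0.0385), when only protein-coding genes were tested (adjusted p = 0.0342) and with at least 1 CPM required in 4 libraries (adjusted p = 0.0481).

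The other comparisons moved few of the genes. Enzalutamide without fasting lowered 2 of 43 and raised none, where 3.62% of all genes tested fell and 1.81% rose. Before adjustment 9 fell and 2 rose, and DESeq2 called 4 lower while limma-voom called 2. Over all genes DESeq2 called 1043 lower and limma-voom 991, against 686 in edgeR. ADF+ENZ tumours had 5 of 43 lower than Vehicle and none higher, where 6.53% of all genes fell and 5.97% rose. Before adjustment 8 fell and 3 rose, and DESeq2 and limma-voom also called 5 lower and none higher. Over all genes DESeq2 called 1499 lower and limma-voom 1241, against 1238 in edgeR. Fibroblast markers summed to 9678 to 10724 CPM in ENZ, below Vehicle and below the 11805 to 13689 CPM of ADF+ENZ. Against Vehicle, Dcn and Col1a2 were lower in ENZ without overlap. Pdgfrb was higher without overlap (329 to 384 CPM in ENZ, 285 to 324 CPM in Vehicle), and the other genes of the list overlapped. The part of these markers in these comparisons was not tested. The 5 genes lower in ADF+ENZ than in Vehicle were called in ADF against Vehicle too, with the same Vehicle libraries. Fasting in the presence of the drug, ADF+ENZ against ENZ, had 1 of 43 lower and none higher, where 0.274% of all genes fell and 0.813% rose. Before adjustment 3 fell and 7 rose there, DESeq2 called 2 higher and 1 lower, and limma-voom called none. Over all genes DESeq2 called 481 higher and 212 lower there, and limma-voom 223 and 79.

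**Figure D3:**
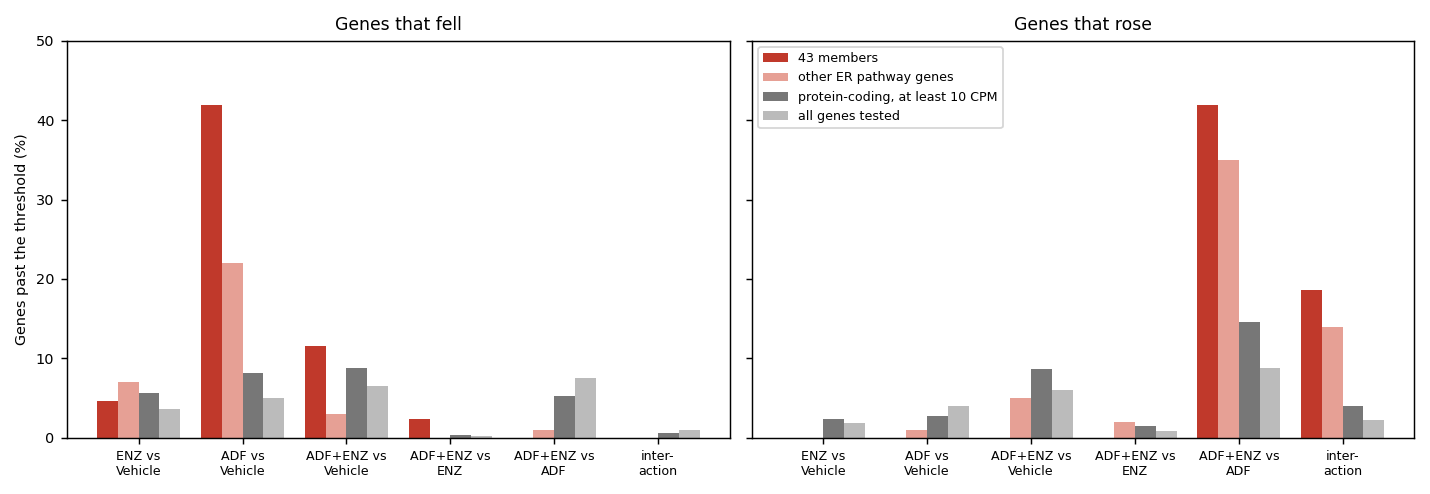
Percentage of genes past the threshold (y axis, from 0) that fell (left) and rose (right) in each comparison (x axis), for the 43 genes, 100 other genes of ER pathways, the 9450 protein-coding genes averaging at least 10 CPM and all 18946 genes tested. The 43 genes reach 41.9% in the fall of ADF against Vehicle and in the rise of ADF+ENZ against ADF.

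Among the 11 chaperones and their cofactors, 6 fell in ADF against Vehicle (Calr, Hsp90b1, Dnajb11, Sdf2l1, Canx and Dnajb9) and all 11 had a log2 change below 0. Calr encodes calreticulin, the soluble lectin chaperone of glycoproteins. It read 565, 617, 582 and 503 CPM in the Vehicle tumours and 369.8, 439.7, 385 and 359 CPM in the ADF tumours (log2 change -0.55, SE 0.0996, adjusted p = 0.00315). The ENZ tumours read 469.7, 552, 607 and 566 CPM and the ADF+ENZ tumours 476, 483, 527 and 418 CPM. All ADF libraries were thus below all Vehicle and ENZ libraries, while 1 ADF+ENZ library fell within the ADF range. Hsp90b1 encodes GRP94, the HSP90 of the ER. Its levels were 462, 493, 498 and 456 CPM in Vehicle and 307, 332, 388 and 364 CPM in ADF (log2 change -0.46, SE 0.102, adjusted p = 0.0115), and they were 436, 421, 526 and 447 CPM in ENZ and 348, 463, 462 and 412 CPM in ADF+ENZ. Vehicle and ADF did not overlap, whereas ADF+ENZ spread over both.

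Canx encodes calnexin, the membrane-bound partner of calreticulin, and it was one of the genes called in both directions. Vehicle tumours had 821, 957, 830.3 and 728 CPM and ADF tumours 699.7, 647, 655 and 594 CPM (log2 change -0.36, SE 0.102, adjusted p = 0.0327). ENZ tumours had 639, 778, 844 and 722 CPM, and ADF+ENZ tumours had 930.1, 812, 957 and 889 CPM. The ADF+ENZ libraries lay above every ADF library (log2 change 0.47, SE 0.102, adjusted p = 0.00729) and overlapped the Vehicle libraries. The fall against Vehicle was not past the threshold without Vehicle replicate 2, Vehicle replicate 3, ADF replicate 2, ADF replicate 3 or ADF replicate 4 (adjusted p = 0.0611 to 0.114). Dnajb11, a J-domain cofactor of BiP, had ADF libraries that lay close together. It read 69.5, 83.5, 64.3 and 69.3 CPM in Vehicle, 56.4, 57.0, 56.5 and 56.7 CPM in ADF and 73.4, 71.9, 70.3 and 72.8 CPM in ADF+ENZ. It fell in ADF (log2 change -0.34, SE 0.0803, adjusted p = 0.0153) and was higher in ADF+ENZ than in ADF (log2 change 0.35, SE 0.0806, adjusted p = 0.00962), with no overlap in either comparison, and the ENZ tumours had 66.2, 73.8, 78.2 and 78.2 CPM. The fall was not past the threshold without Vehicle replicate 2 (adjusted p = 0.0579).

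Sdf2l1, a component of the BiP chaperone cycle, was low in both fasted groups. It read 17.5, 18.9, 20.8 and 17.6 CPM in Vehicle and 17.2, 14.4, 20.4 and 17.5 CPM in ENZ, against 10.8, 12.9, 15.7 and 11.6 CPM in ADF and 13.7, 11.3, 10.7 and 11.2 CPM in ADF+ENZ. Both fasted groups lay below Vehicle without overlap (log2 change -0.55, SE 0.131, adjusted p = 0.0157 for ADF and -0.67, adjusted p = 0.0035 for ADF+ENZ). It was the one gene of the 43 that edgeR called in ADF+ENZ against ENZ (log2 change -0.57, SE 0.133, adjusted p = 0.0423). Its interaction was -0.01 with an approximate 95% interval of -0.39 to 0.36, taken like those below as 2 SE on each side. The call against ENZ was kept only when ENZ replicate 2 was the library left out, and it was not past the threshold without ENZ replicate 1, ENZ replicate 3, ENZ replicate 4, ADF+ENZ replicate 1, ADF+ENZ replicate 2, ADF+ENZ replicate 3 or ADF+ENZ replicate 4 (adjusted p = 0.0627 to 0.164). The fall in ADF alone was not past it without Vehicle replicate 3 or ADF replicate 4 (adjusted p = 0.0539 to 0.0584).

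Hspa5, which encodes BiP, the central Hsp70 of the ER, is given because of its place in the pathway, chosen after its values were seen. It ranged over 533 to 597 CPM in Vehicle, 387 to 485 CPM in ADF, 451 to 622 CPM in ENZ and 499 to 567 CPM in ADF+ENZ. Vehicle and ADF did not overlap, but the log2 change of -0.32 had an adjusted p of 0.0502 in edgeR. It was called lower by DESeq2 (adjusted p = 0.0151), limma-voom (0.0246), without a filter (0.0300) and with DESeq2 size factors in edgeR (0.0450). The remaining chaperone genes included Dnajb9, which also fell in ADF (log2 change -0.36, adjusted p = 0.0471). That call was kept in 1 of 8 fits that left out a library. Manf, a secreted ER stress factor, rose in ADF+ENZ against ADF from 47.2 to 57.9 CPM to 60.7 to 72.9 CPM (log2 change 0.38, SE 0.11, adjusted p = 0.0272), though not without ADF replicate 1, ADF replicate 4, ADF+ENZ replicate 1 or ADF+ENZ replicate 3 (adjusted p = 0.0522 to 0.0972). Creld2, another ER stress-responsive gene, rose as well (adjusted p = 0.0312) with overlapping groups. Hyou1, the large Hsp70-like chaperone, and Dnajc3, the J-domain protein p58IPK, were called in no comparison by edgeR with all 16 libraries. Hyou1 was called higher in ADF+ENZ than in ADF by DESeq2 (adjusted p = 0.0341), limma-voom (adjusted p = 0.0393) and edgeR without ADF replicate 2 (adjusted p = 0.0361).

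**Figure D4:**
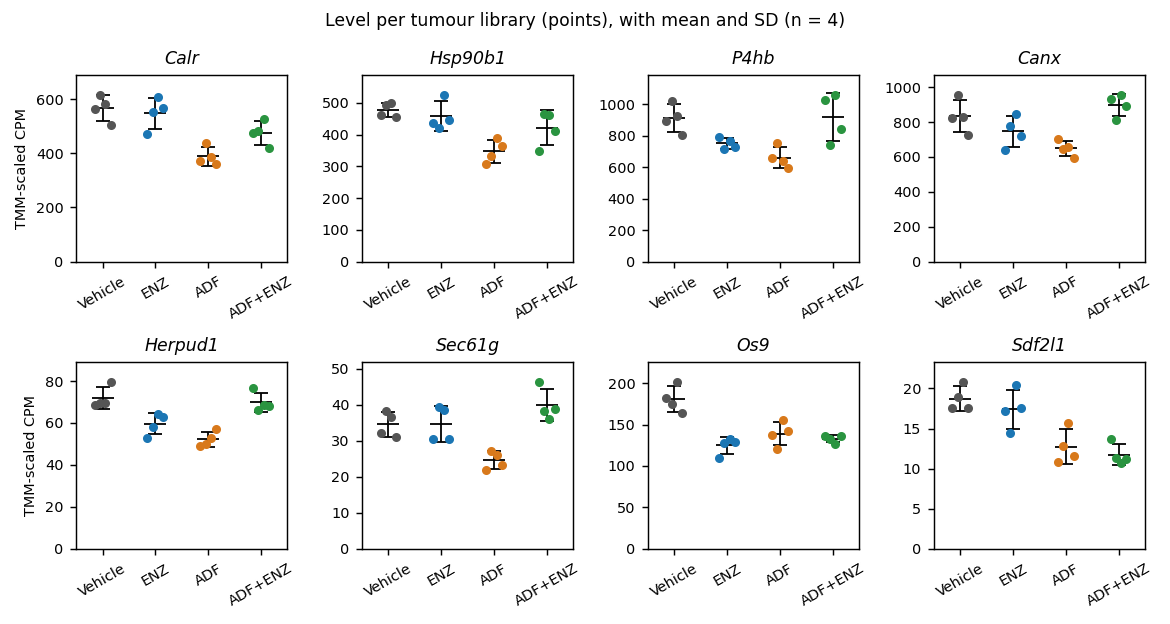
TMM-scaled CPM (y axis, from 0) of 8 genes in each tumour library, by group (x axis). Points are libraries, the horizontal bar is the mean and the whiskers are 1 SD (n = 4); the ADF points lie below all Vehicle points in every panel, and for Canx, Herpud1 and Sec61g the ADF+ENZ points lie above all ADF points.

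Promoter letters are shown for the genes that carry an ER stress response element, the element of classical targets of ATF6 and XBP1. RefSeq promoter windows (250 bases before to 50 after the start, mouse build GRCm38.p6) were found for 35 of the 43 genes. The element ERSE was searched on both strands as CCAAT and CCACG with any 9 bases between them, its second form ERSE-II as ATTGG and CCACG with any 1 base between them, and the unfolded protein response element UPRE as TGACGTGG. Each line runs 5′ to 3′ on the gene's strand and lies before the start, with the matched element in capitals (in reverse complement where it begins with CGTGG). The first 4 lines give the 250 bases before the start and the others the match with up to 30 bases on each side.
Hspa5 (chr2:34771840-34772089, plus strand): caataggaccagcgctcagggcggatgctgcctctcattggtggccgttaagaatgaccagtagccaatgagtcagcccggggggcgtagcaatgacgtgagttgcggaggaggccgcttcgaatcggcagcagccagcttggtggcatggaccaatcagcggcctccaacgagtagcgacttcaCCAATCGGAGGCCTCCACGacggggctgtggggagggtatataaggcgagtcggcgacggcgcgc
Hsp90b1 (chr10:86705445-86705694, minus strand): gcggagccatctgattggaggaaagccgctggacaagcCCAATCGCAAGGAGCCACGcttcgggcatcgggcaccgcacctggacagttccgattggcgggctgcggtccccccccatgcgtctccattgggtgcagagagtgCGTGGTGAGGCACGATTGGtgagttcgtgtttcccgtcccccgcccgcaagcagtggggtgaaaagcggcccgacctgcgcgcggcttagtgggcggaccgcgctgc
Calr (chr8:84846932-84847181, minus strand): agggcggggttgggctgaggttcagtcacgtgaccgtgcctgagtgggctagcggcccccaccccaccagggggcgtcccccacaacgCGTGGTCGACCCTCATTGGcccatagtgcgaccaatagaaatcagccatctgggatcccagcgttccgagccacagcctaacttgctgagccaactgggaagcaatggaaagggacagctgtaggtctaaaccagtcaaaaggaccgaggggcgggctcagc
Herpud1 (chr8:94386179-94386428, plus strand): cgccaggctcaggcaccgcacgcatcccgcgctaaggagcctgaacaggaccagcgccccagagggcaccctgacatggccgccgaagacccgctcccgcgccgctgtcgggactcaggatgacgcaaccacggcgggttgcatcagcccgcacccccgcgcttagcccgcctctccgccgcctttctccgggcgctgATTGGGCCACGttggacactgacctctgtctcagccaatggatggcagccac
Canx (chr11:50325770-50325848, minus strand): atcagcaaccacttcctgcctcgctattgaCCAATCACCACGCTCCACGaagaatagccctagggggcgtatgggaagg
Pdia6 (chr12:17266461-17266539, plus strand): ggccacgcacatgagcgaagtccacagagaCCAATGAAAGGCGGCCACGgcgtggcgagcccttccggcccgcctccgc
Creld2 (chr15:88819490-88819568, plus strand): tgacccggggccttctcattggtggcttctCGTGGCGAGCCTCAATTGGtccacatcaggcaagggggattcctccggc
Dnajc3 (chr14:118937797-118937875, plus strand): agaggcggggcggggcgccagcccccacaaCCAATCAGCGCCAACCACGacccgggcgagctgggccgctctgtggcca
Syvn1 (chr19:6046502-6046575, plus strand): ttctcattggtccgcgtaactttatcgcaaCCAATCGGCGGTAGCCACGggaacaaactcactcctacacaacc
Derl3 (chr10:75893212-75893290, plus strand): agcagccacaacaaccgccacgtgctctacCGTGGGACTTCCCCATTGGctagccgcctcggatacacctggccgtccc
Herpud1 carries ERSE-II, and the other 9 carry ERSE, which Hsp90b1 holds at 2 places. An ERSE match was present in 9 of the 35 windows (25.7%), against 37 of 27025 genes with a window (0.137%). ERSE-II was present in 2 of 35 (Herpud1, and Dnajb11 after the start) against 0.0444% of genes, and UPRE in 1 of 35 (Txndc5) against 0.714%. The genes were listed by name and function as ER genes, so these shares describe the list and are not a test. Of the 11 genes with either ERSE form, 6 fell in ADF against Vehicle, with a median log2 change of -0.34. Of the 24 with a window and neither form, 11 fell, with a median of -0.28. In ADF+ENZ against ADF, 4 of the 11 and 9 of the 24 rose. The genes with an ERSE match ranged from Calr at -0.55 to Syvn1 at 0.17 and the sparsely counted Derl3 at 0.55 in ADF against Vehicle. A match is a run of letters and not a measured binding site.

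Among the 8 genes of the disulfide isomerase family, 5 fell in ADF against Vehicle (Pdia4, Erp44, P4hb, Pdia3 and Pdia6), and all 8 had a log2 change below 0. Pdia4 encodes ERp72, an isomerase with several thioredoxin domains. It read 157, 174, 174 and 149.7 CPM in Vehicle and 104, 132, 120.3 and 93.1 CPM in ADF (log2 change -0.54, SE 0.106, adjusted p = 0.00469), without overlap. It also fell in ADF+ENZ, at 129, 123, 135 and 116 CPM (log2 change -0.38, SE 0.105, adjusted p = 0.0227), while ENZ tumours had 115, 129, 153 and 145 CPM and overlapped Vehicle. The fall in ADF+ENZ was not past the threshold without Vehicle replicate 2, Vehicle replicate 3 or ADF+ENZ replicate 4 (adjusted p = 0.0527 to 0.0678). Erp44 encodes a thioredoxin-fold protein that retains unassembled cargo in the early secretory pathway. Its Vehicle tumours clustered at 71.1, 72.8, 74.2 and 74.9 CPM, above 55.4, 57.4, 55.7 and 47.6 CPM in ADF (log2 change -0.44, SE 0.0885, adjusted p = 0.00615). The ENZ tumours had 56.5, 71.0, 68.9 and 72.9 CPM and the ADF+ENZ tumours 57.0, 67.6, 69.1 and 64.3 CPM, which overlapped one another.

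P4hb encodes protein disulfide isomerase itself, which is also the beta subunit of collagen prolyl hydroxylase. It read 891, 1021, 923 and 807 CPM in Vehicle and 657, 751, 643 and 593 CPM in ADF (log2 change -0.46, SE 0.113, adjusted p = 0.0176), without overlap. ENZ tumours were tightly grouped at 795, 716, 769 and 728 CPM, whereas ADF+ENZ tumours were spread over 1027, 739.9, 1062 and 842 CPM. The difference between ADF+ENZ and ADF passed the test (log2 change 0.47, SE 0.113, adjusted p = 0.0112) although the lowest ADF+ENZ library lay below the highest ADF library. The fall in ADF was not past the threshold without Vehicle replicate 2 or ADF replicate 4 (adjusted p = 0.0603 to 0.0687). Pdia6, another oxidoreductase of the ER, read 335, 336, 304 and 279.6 CPM in Vehicle, 243, 255, 252 and 212 CPM in ADF and 228, 279, 269.6 and 223 CPM in ADF+ENZ. Both fasted groups lay below Vehicle (-0.38, adjusted p = 0.0297 for ADF and -0.33, adjusted p = 0.0471 for ADF+ENZ), and ENZ tumours had 261, 256, 335 and 315 CPM. Each of the Pdia6 calls was kept in 2 of 8 fits that left out a library. Pdia3, the isomerase ERp57 that works with calnexin and calreticulin, fell in ADF (adjusted p = 0.0231) from 462 to 545 CPM to 339 to 408 CPM. The call was lost without Vehicle replicate 2, ADF replicate 1 or ADF replicate 4 (adjusted p = 0.0511 to 0.0852). Pdia5 (log2 change 0.55, SE 0.149, adjusted p = 0.0205) and Txndc5 (adjusted p = 0.0378) rose in ADF+ENZ against ADF, both with overlapping groups, and Pdia5 was not past the threshold without ADF replicate 3, ADF replicate 4 or ADF+ENZ replicate 3 (adjusted p = 0.0576 to 0.0749). Erp29, an isomerase-like chaperone without the redox motif, was called in no comparison and averaged 63.1 ± 4.43 CPM in Vehicle and 55.7 ± 2.83 CPM in ADF (SD, n = 4).

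Among the 9 genes of ER-associated degradation, 4 fell in ADF against Vehicle (Herpud1, Derl1, Os9 and Edem1), 3 had a log2 change above 0, and 2 rose in ADF+ENZ against ADF (Herpud1 and Derl1). Herpud1 encodes a membrane protein that organizes the HRD1 ubiquitin ligase complex and is strongly induced by ER stress. It read 68.6, 69.4, 69.4 and 79.6 CPM in Vehicle and 48.9, 50.2, 53.0 and 57.1 CPM in ADF (log2 change -0.46, SE 0.083, adjusted p = 0.0031). ENZ tumours had 53.1, 58.3, 64.2 and 62.8 CPM and ADF+ENZ tumours 76.6, 66.1, 68.5 and 67.9 CPM. The ADF+ENZ libraries were all above the ADF libraries (log2 change 0.42, SE 0.0833, adjusted p = 0.00484) and above the ENZ libraries, with 1 within the Vehicle range and 3 just below it. Derl1, a channel component of retrotranslocation, had 111, 135, 132 and 129.7 CPM in Vehicle and 100.1, 107, 91.2 and 84.2 CPM in ADF (log2 change -0.41, SE 0.0883, adjusted p = 0.00962). ENZ tumours had 107, 115, 116 and 123 CPM and ADF+ENZ tumours 121, 106, 129 and 119 CPM (log2 change 0.31, SE 0.0885, adjusted p = 0.0246 against ADF). Vehicle and ADF did not overlap, but 1 ADF+ENZ library lay within the ADF range, and that rise was not past the threshold without ADF replicate 3, ADF replicate 4, ADF+ENZ replicate 1 or ADF+ENZ replicate 3 (adjusted p = 0.0573 to 0.0972).

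Os9 and Edem1, which recognise misfolded glycoproteins by their trimmed glycans, were lower than Vehicle in all 3 treated groups. Os9, a lectin, read 183, 174, 202 and 164 CPM in Vehicle and 109.9, 127, 133 and 129 CPM in ENZ (log2 change -0.53, SE 0.0868, adjusted p = 0.00127). It read 138, 121, 156 and 142 CPM in ADF (log2 change -0.38, SE 0.0867, adjusted p = 0.0138) and 137, 133, 127 and 136 CPM in ADF+ENZ (log2 change -0.44, SE 0.0868, adjusted p = 0.00353). The lowest Vehicle library lay above the highest library of every treated group, and the treated groups overlapped one another. The fall in ADF was not past the threshold without Vehicle replicate 3 (adjusted p = 0.0527). Edem1, an ER mannosidase-like protein, read 112, 129.8, 113 and 108 CPM in Vehicle and 86.2, 85.8, 95.2 and 91.9 CPM in ENZ (log2 change -0.37, SE 0.0784, adjusted p = 0.0103). It read 84.4, 98.4, 102 and 93.0 CPM in ADF and 98.0, 93.8, 87.2 and 93.4 CPM in ADF+ENZ (log2 change -0.31, SE 0.0784, adjusted p = 0.0144). Again no treated library reached the lowest Vehicle library. Its fall in ADF (adjusted p = 0.0274) was not past the threshold without Vehicle replicate 2, Vehicle replicate 3, ADF replicate 1 or ADF replicate 4 (adjusted p = 0.0562 to 0.0999), nor that in ADF+ENZ without ADF+ENZ replicate 3 (adjusted p = 0.0523). These were the 2 genes of the 43 called with enzalutamide alone.

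The HRD1 ligase and its adaptor were called in no comparison by edgeR with all 16 libraries. Syvn1, which encodes HRD1, averaged 64.2 ± 2.14 CPM in Vehicle and 72.4 ± 4.49 CPM in ADF, and its adaptor Sel1l 180.4 ± 7.66 and 192 ± 11.9 CPM (SD, n = 4). Their log2 changes in ADF against Vehicle had 95% intervals of -0.01 to 0.36 for Syvn1 and -0.04 to 0.22 for Sel1l. Sel1l was called higher in ADF+ENZ than in ENZ by DESeq2 (log2 change 0.23, adjusted p = 0.0117), and Syvn1 was called higher in ADF+ENZ than in Vehicle by edgeR without ADF+ENZ replicate 4 (adjusted p = 0.0340). Edem2 and Derl2 were not called by edgeR with all libraries, while limma-voom called Derl2 higher in ADF+ENZ than in ADF (adjusted p = 0.0433). Derl3, the derlin enriched in professional secretory cells, had 7 to 39 counts per library, so its log2 change of 0.55 in ADF against Vehicle has a 95% interval of -0.10 to 1.20.

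None of the 4 regulators of the unfolded protein response passed the threshold in ADF against Vehicle, and none of the 4 had an unadjusted p under 0.05 there. The log2 change lay below 0 in 3 of the 4. Xbp1, the transcription factor that IRE1 activates by splicing, averaged 123 ± 9.48 CPM in Vehicle and 113 ± 13.2 CPM in ADF (SD, n = 4), and with the drug 115 ± 13.2 CPM in ENZ and 121 ± 14.1 CPM in ADF+ENZ. Gene counts do not separate its spliced and unspliced forms. Ern1, which encodes IRE1, averaged 84.0 ± 5.74 and 84.2 ± 8.79 CPM without the drug, and 71.6 ± 7.79 in ENZ and 70.6 ± 3.58 CPM in ADF+ENZ. The 95% intervals of the log2 change in ADF against Vehicle were -0.33 to 0.08 for Xbp1, -0.18 to 0.18 for Ern1, -0.30 to 0.07 for the sensor Atf6 and -0.28 to 0.10 for its paralogue Atf6b. Atf6b alone of the 4 rose past the threshold in ADF+ENZ against ADF. It read 80.3, 69.8, 73.3 and 73.8 CPM in ADF and 91.7, 85.9, 114 and 88.8 CPM in ADF+ENZ (log2 change 0.36, SE 0.0955, adjusted p = 0.0191), with no overlap. Vehicle tumours had 81.0, 85.5, 77.0 and 72.4 CPM and ENZ tumours 80.4, 87.4, 102 and 94.7 CPM. That call was not past the threshold without ADF replicate 3, ADF replicate 4 or ADF+ENZ replicate 3 (adjusted p = 0.0503 to 0.0801).

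Of the 7 genes of the translocon, the TRAP complex and signal peptidase, edgeR called 5 higher in ADF+ENZ against ADF (Sec61g, Ssr2, Ssr3, Sec61a1 and Sec61b) and 1 lower in ADF against Vehicle (Sec61g). DESeq2 and limma-voom also called Sec61a1, Sec61b and Ssr3 lower in ADF, and at an unadjusted p under 0.05 edgeR had 6 of 7 lower there and 7 of 7 higher in ADF+ENZ against ADF. All 7 lay below 0 in the first fasting comparison and above 0 with the drug added to fasting, and these comparisons share the ADF libraries. Sec61g encodes the gamma subunit of the Sec61 channel. It read 32.2, 38.4, 36.6 and 31.2 CPM in Vehicle and 22.0, 27.3, 26.1 and 23.2 CPM in ADF (log2 change -0.49, SE 0.114, adjusted p = 0.0144). ENZ tumours had 30.5, 39.5, 38.7 and 30.5 CPM and ADF+ENZ tumours 46.4, 38.4, 36.2 and 39.0 CPM (log2 change 0.70, SE 0.114, adjusted p = 0.00207 against ADF). Every library of the other 3 groups was higher than every ADF library. The fall was not past the threshold without ADF replicate 4 (adjusted p = 0.0537).

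Sec61a1 encodes the pore-forming subunit of the same channel. Its levels were 262, 304, 271 and 253 CPM in Vehicle, 248, 243, 219.7 and 200.1 CPM in ADF and 289.6, 268, 311 and 264 CPM in ADF+ENZ (log2 change 0.31, SE 0.0851, adjusted p = 0.0199 against ADF). ENZ tumours had 233, 233, 249 and 232 CPM. ADF+ENZ lay above ADF and above ENZ without overlap. The call was not past the threshold without ADF replicate 3, ADF replicate 4 or ADF+ENZ replicate 3 (adjusted p = 0.0582 to 0.0791). Ssr3 and Ssr2 encode subunits of TRAP, the complex beside the channel that aids the entry of some signal sequences. Ssr3 read 564, 558, 584 and 556 CPM in Vehicle, 566, 439, 473 and 458 CPM in ADF, 502, 515, 525 and 464 CPM in ENZ and 599.6, 617, 628 and 590.0 CPM in ADF+ENZ. It rose in ADF+ENZ against ADF (log2 change 0.33, SE 0.0831, adjusted p = 0.014) without overlap, though not past the threshold without ADF replicate 4 (adjusted p = 0.0524). Ssr2 read 82.9, 119, 77.6 and 97.7 CPM in Vehicle, 84.6, 80.3, 69.9 and 63.9 CPM in ADF, 105, 85.2, 102 and 91.9 CPM in ENZ and 114, 99.5, 140.2 and 98.0 CPM in ADF+ENZ (log2 change 0.59, SE 0.137, adjusted p = 0.0102 against ADF). ADF+ENZ and ADF did not overlap, while Vehicle spread over both. Sec61b, the beta subunit, rose too (adjusted p = 0.0411), a call kept in 1 of 8 fits that left out a library. Ssr1, of TRAP, and Spcs2, of signal peptidase, were not called.

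Among the 4 oligosaccharyltransferase genes, the ribophorins Rpn1 and Rpn2 fell in ADF against Vehicle. Rpn1 had the smallest adjusted p of the 43 genes in that comparison. It read 285, 307, 283 and 272 CPM in Vehicle and 218, 205, 209.7 and 187 CPM in ADF (log2 change -0.48, SE 0.0845, adjusted p = 0.00236), without overlap. ENZ tumours had 205, 224, 266 and 256 CPM and ADF+ENZ tumours 257, 240.3, 258 and 244 CPM, both below every Vehicle library. ADF+ENZ lay above ADF without overlap (adjusted p = 0.0285), but that rise was not past the threshold without ADF replicate 2, ADF replicate 3, ADF replicate 4, ADF+ENZ replicate 1 or ADF+ENZ replicate 3 (adjusted p = 0.0513 to 0.104). Rpn2 fell from 435 to 483 CPM to 347 to 381 CPM (adjusted p = 0.0381), a call kept in 2 of 8 fits that left out a library. Stt3a, the catalytic subunit, and Ostc, its link to the translocon, rose in ADF+ENZ against ADF (adjusted p = 0.0279 and 0.0407), and these calls were kept in 4 and 3 of 8 such fits. Stt3a averaged 173 ± 14.6 CPM in ADF and 213 ± 10.2 CPM in ADF+ENZ (SD, n = 4). Neither gene was called against Vehicle by edgeR with all 16 libraries, TMM scaling and the filter on low counts. Stt3a was called lower in ADF by DESeq2 (log2 change -0.29, adjusted p = 0.0190) and limma-voom (adjusted p = 0.0266). It was also called lower by edgeR with DESeq2 size factors (adjusted p = 0.0453), without a filter (0.0496) and without ADF replicate 2 (0.0327).

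Whether fasting acted differently with the drug present was tested as an interaction, the fasting effect with enzalutamide (ADF+ENZ against ENZ) minus the fasting effect without it (ADF against Vehicle). It was above 0 in 40 of the 43 genes, and 8 passed the threshold in that direction and none in the other, where 2.18% of all genes tested passed above 0 and 0.918% below. The median of the 43 was 0.34, beside 0.08 for those protein-coding genes. At an unadjusted p under 0.05 there were 25 above and none below 0. DESeq2 called 14 and limma-voom 8. Over all genes DESeq2 called 946 above 0 and limma-voom 569, against 413 in edgeR. The difference was 0.68 for Herpud1 (SE 0.117, adjusted p = 0.00787), 0.75 for P4hb (SE 0.16, adjusted p = 0.0211) and 0.55 for Rpn1 (SE 0.119, adjusted p = 0.0223). For Canx it was 0.63 (adjusted p = 0.0279) and for Sec61g 0.69 (adjusted p = 0.0288). For Sec61a1 it was 0.52, for Ssr3 0.50 and for Os9 0.47 (adjusted p = 0.0288, 0.0288 and 0.0441). Of these 8 genes, 6 fell in ADF against Vehicle, and none was called in ADF+ENZ against ENZ by edgeR, while DESeq2 called Ssr3 higher there (log2 change 0.29, adjusted p = 0.0116). In P4hb, for example, the mean without the drug was 911 ± 88.6 CPM in Vehicle and 661 ± 66.1 CPM in ADF, whereas the means were 752 ± 36.6 CPM in ENZ and 918 ± 153 CPM in ADF+ENZ (SD, n = 4).

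**Figure D5:**
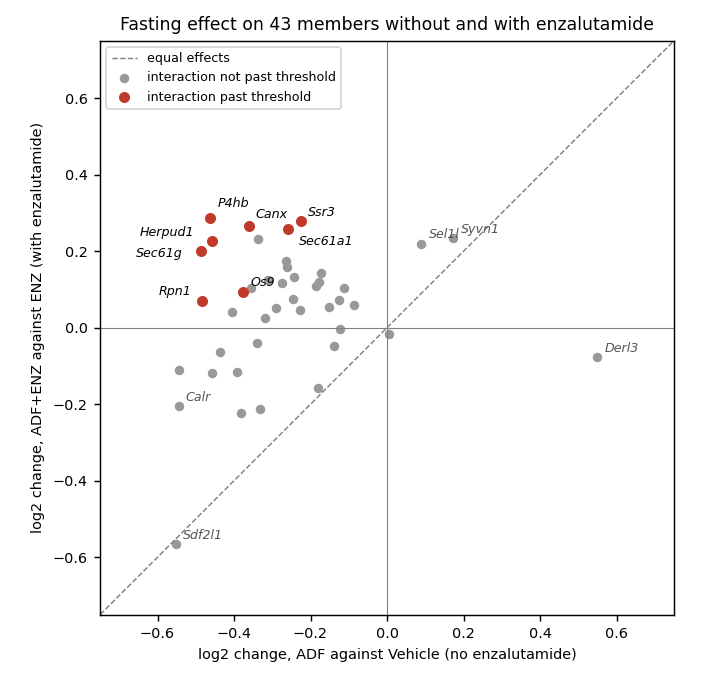
log2 change with fasting in tumours without enzalutamide (x axis) and with enzalutamide (y axis) for the 43 genes, 1 point each. The dashed line marks equal effects and red points are the 8 genes whose interaction passed the threshold; 40 of the 43 points lie above the line, and Sdf2l1 lies close to it at the lower left.

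The number of interaction calls varied with the library left out. It was 1 without ADF replicate 4, 2 without ADF+ENZ replicate 3, and 3 without Vehicle replicate 2, Vehicle replicate 3 or ADF+ENZ replicate 1, and 5 without ENZ replicate 4. Without ADF replicate 4 the interaction calls above 0 over all genes also went from 413 to 121, and the differences kept about their size, at 0.70 for P4hb, 0.66 for Sec61g, 0.59 for Canx and 0.51 for Rpn1. Herpud1 was the gene called in all 16 fits that left out 1 library. With the share of unassigned reads added to the model none of the 43 was called, nor any of the 18946 genes, 3 of the 43 had an unadjusted p under 0.05, and Herpud1 had the smallest adjusted p at 0.79, adjusted p = 0.547. Herpud1 also kept its size in that fit in ADF against Vehicle (-0.54, adjusted p = 0.171), whereas Canx did not (0.00, adjusted p = 0.996). ADF replicate 4, the library with 36.7% of reads in no feature, held the lowest of the 16 values in 24 of the 43 genes, and 34 genes had their lowest library somewhere in the ADF group. The same counts were not taken over all genes, so they cannot be called particular to these 43.

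The rest of the pathway was read from 7 lists of other ER genes, of which 100 of 102 could be matched and tested. In ADF against Vehicle 22 of the 100 fell and 1 rose, with a median log2 change of -0.21, beside 4.96% and 4.05% of all genes tested and 8.13% of the more abundant protein-coding genes that fell. In ADF+ENZ against ADF 35 rose and 1 fell, beside 8.72% and 7.54% of all genes and 14.6% of those protein-coding genes that rose. The interaction was above 0 past the threshold in 14, beside 2.18% of all genes. With the unassigned reads in the model, 6, 0 and 0 of all 18946 genes were called in these 3 contrasts. Oxidative folding had 6 of 17 lower in ADF, led by Ero1a, the oxidase that recharges disulfide isomerase. Ero1a averaged 118 ± 29.8 CPM in Vehicle and 41.0 ± 7.15 CPM in ADF (SD, n = 4), and with the drug 40.2 ± 8.71 CPM in ENZ and 33.3 ± 3.63 CPM in ADF+ENZ. Its log2 change was -1.56 in ENZ (adjusted p = 0.000163) and -1.53 in ADF (adjusted p = 0.000272), larger than that of any of the 43 genes. Gpx8, an ER peroxidase, fell in ADF (-0.54) and in ADF+ENZ (-0.47), as did the BiP exchange factor Sil1 in ADF (-0.52) and ENZ (-0.44). Prdx4, a peroxiredoxin of the ER, was the gene that fell in ADF+ENZ against ADF (log2 change -0.81, SE 0.174, adjusted p = 0.00708).

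Of 19 genes of COPII coats, cargo receptors and KDEL receptors, 7 fell in ADF against Vehicle and 10 rose in ADF+ENZ against ADF. The coat GTPases Sar1b (log2 change -0.48, SE 0.0903, adjusted p = 0.00376) and Sar1a (-0.36, adjusted p = 0.00465) and the receptor subunit Mcfd2 (-0.35, adjusted p = 0.015) led the falls. Sar1b averaged 41.5 ± 3.84 CPM in Vehicle and 29.7 ± 2.48 CPM in ADF (SD, n = 4). Lman1, the cargo receptor ERGIC-53, rose with the drug added to fasting (0.51, adjusted p = 0.00334), as did Kdelr3, which returns escaped ER proteins (0.60, adjusted p = 0.00551). Of 16 other targeting and translocation genes, 3 fell in ADF (the signal recognition receptor Srpra, Srp72 and Srprb) and 9 rose in ADF+ENZ against ADF, led by Srpra (0.41), the tail-anchor ATPase Get3 (0.54) and Srprb (0.37). Of 13 other glycosylation genes, 2 fell in ADF (Prkcsh and Ddost) and 1 rose (Alg6), and 5 rose in ADF+ENZ against ADF, led by Krtcap2 (0.55). Of 17 other degradation genes, 3 fell in ADF and 6 rose in ADF+ENZ against ADF. Erlec1, a lectin related to Os9, was higher in ADF+ENZ than in ENZ (log2 change 0.60, SE 0.0883, adjusted p = 0.00449).

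The PERK branch had few calls. None of its 9 genes was called in ADF against Vehicle, with 2 lower at an unadjusted p under 0.05, and 1 of 9 rose in ADF+ENZ against ADF. That gene was Atf4, the factor whose translation PERK favours, which averaged 213 ± 26.4 CPM in Vehicle and 164 ± 27.6 CPM in ADF, and 195 ± 13.3 CPM in ENZ and 239 ± 42.3 CPM in ADF+ENZ (SD, n = 4; log2 change 0.55, SE 0.13, adjusted p = 0.0111). Eif2ak3, which encodes PERK, had log2 changes of -0.16 in ADF and -0.19 in ENZ against Vehicle (adjusted p = 0.232 and 0.189). Ddit3, which encodes the stress factor CHOP, averaged 13.2 ± 2.85 CPM in Vehicle and 11.1 ± 1.27 CPM in ADF (adjusted p = 0.272). In the list of site proteases and membrane-bound factors, Creb3 fell in ADF (-0.38) and rose in ADF+ENZ against ADF (0.44). Creb3l2 fell with enzalutamide alone (log2 change -0.59, SE 0.0893, adjusted p = 0.000653), from 146 ± 9.57 to 97.6 ± 8.87 CPM (SD, n = 4).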

How the data were processed

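Total RNA of 16 tumours was sequenced paired-end, per the labels, and the authors deposited 1 table of raw read counts per gene. Per the submitters' processing notes, the tools were Trim Galore, HISAT2, featureCounts and DESeq2, with the builds mm39 and GRCh38, and their settings are not given in the sources used here. Each column header matched the title of 1 sample, and groups came from the labels' treatment field. Rows for reads in no feature, ambiguous, not aligned or aligned to several places stayed out of library sizes and tests.

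Symbols, gene classes and exon lengths came from GENCODE M21 (GRCm38), not the build of the files. The counts were fitted with edgeR 4.0.16 (TMM scaling, filterByExpr with a minimum count of 10 and total of 15, robust quasi-likelihood test) over all 16 libraries at once. Benjamini-Hochberg adjustment ran over all 18946 genes tested, with a threshold of 0.05 and 6 contrasts. The fit was tested on simulated data. Replicate libraries differed by more than sampling noise (chi-square per degree of freedom from 5.79 to 38.6 over 24 pairs). Levels are CPM with TMM scaling. Intervals of log2 changes are approximate and were computed from the SE. Alternatives were DESeq2 1.42.0, limma 3.58.1 voom with quality weights, DESeq2 size factors, other filters, a covariate, fewer groups and leaving out each library. Replicate numbers follow accession order and only name libraries. The members and the lists were chosen with earlier results of these data known. In each comparison, at most 12 called genes with the smallest p got full statistics and at most 8 every sample's value, and of each other list at most 3 called genes were named, with Eif2ak3, Atf4 and Ddit3 always named. Promoter windows are RefSeq's, and 29 of 35 lay with their bases after the start inside a transcript. The motif letters are textbook consensus forms and were not read from the files. The levels of some tissue marker genes are not reported here.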

Additional observations from a re-analysis of the deposited data

Results flagged for a closer look

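In 9 of 172 groups of 4 libraries (43 genes in 4 groups), 1 library lay far from the other 3 by Dixon's ratio, which chance gives in about 1 in 20. Those with a low library were Hspa5 (387 CPM) and Ern1 (71.2 CPM), both in ADF replicate 4. Vehicle replicate 2 was high for Manf (75.6 CPM) and Spcs2 (66.5 CPM), and Vehicle replicate 4 for Herpud1 (79.6 CPM). The other high libraries were ADF+ENZ replicate 1 for Derl2 (57.5 CPM), ADF+ENZ replicate 3 for Rpn2 (517 CPM), ADF replicate 1 for Atf6 (156 CPM) and ENZ replicate 3 for Sec61a1 (249 CPM).

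The fasting effect differed between tumours with and without enzalutamide in 8 genes by the interaction test in edgeR. The difference on the log2 scale was 0.68 for Herpud1, 0.75 for P4hb, 0.55 for Rpn1, 0.63 for Canx, 0.69 for Sec61g, 0.52 for Sec61a1, 0.50 for Ssr3 and 0.47 for Os9.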

How the results depend on the processing

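Without a covariate, the genes called in ADF against Vehicle numbered 16 to 23 and those in ADF+ENZ against ADF 14 to 23 under other normalizations, tools, filters or groups. With the percentage of reads in no feature as covariate the count was 0 in ADF against Vehicle, ADF+ENZ against ADF, the interaction and ADF+ENZ against ENZ. It went from 2 to 3 in ENZ against Vehicle (Rpn1 added) and from 5 to 7 in ADF+ENZ against Vehicle (Calr and Rpn1 added). All of these were lower, where 760 and 906 of all 18946 genes fell with the covariate. In that fit Canx in ADF against Vehicle turned to 0.0038, and in ADF+ENZ against ADF these values turned: Atf6b -0.029, Sec61a1 -0.080, Derl1 -0.089, Stt3a -0.0010, Rpn1 -0.042, Creld2 -0.012 and Txndc5 -0.13; the cause was not tested. DESeq2 called 4 in ENZ against Vehicle, 3 in ADF+ENZ against ENZ and 14 in the interaction. Testing protein-coding genes alone gave 4 in ENZ against Vehicle, and limma-voom, or fitting only the groups compared, gave 0 in ADF+ENZ against ENZ. Leaving out 1 library at a time gave 2 to 3 genes in ENZ against Vehicle, 9 to 17 in ADF against Vehicle, 3 to 5 in ADF+ENZ against Vehicle, 0 to 1 in ADF+ENZ against ENZ, 7 to 19 in ADF+ENZ against ADF and 1 to 10 in the interaction. Of the called genes, 7 of 18 in ADF against Vehicle, 6 of 18 in ADF+ENZ against ADF and 1 of 8 in the interaction were called in every such fit. No paired analysis was possible because the labels give the libraries no replicate numbers that groups share. Low counts limit only Derl3, with 7 to 39 counts per library.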
